A study of Mus musculus with 12 samples.

Results

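The comparison described here set 2 libraries of JNK3 KO retinas against 2 libraries of WT (B6J) retinas, all from eyes that had received PBS and no NMDA. These were 4 of the 12 libraries of the series and were chosen by their genotype and treatment labels. The series examined how JNK3 and the transcription factor PAX6 act in retinas after excitotoxic injury by N-methyl-D-aspartate (NMDA), an agonist of a class of glutamate receptors. Besides the 4 libraries, 2 libraries each came from WT retinas given 40 mM NMDA, JNK3 KO retinas given 40 mM NMDA, and retinas infected with an AAV2.7m8 vector for shPax6 and given PBS or NMDA. Each library held poly(A) RNA of more than 3 retinas.

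WT animals were C57BL/6J mice, and JNK3 KO animals were Jnk3-/- mice, in which the gene is disrupted in every cell of the body and throughout development. Both lines came from the Jackson Laboratory, and control C57BL/6J males were also purchased. The labels give neither the age of these mice nor whether the genotypes were littermates. Every eye of the comparison had received 1 μL of PBS into the vitreous, so that the retinas were free of NMDA but not untouched. Whether the 2 libraries of a group came from separate mice is not stated. The p-values then measure only a spread between libraries, estimated over all 6 groups and shared in part across genes.

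JNK3, encoded by Mapk10, is a c-Jun N-terminal kinase. It belongs to the stress-activated branch of the MAP kinases, in which upstream kinases phosphorylate MKK4 and MKK7, these phosphorylate JNK1, JNK2 or JNK3, and the JNKs phosphorylate c-Jun and other factors of the AP-1 family. JNK1 and JNK2 are made in most tissues, whereas JNK3 is found mainly in neurons, where it is known for its part in cell death after stress.

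Of 55487 genes in the table, 16471 had a mean above 1 FPKM (fragment counts scaled to transcript length and library size) in at least 1 of the 6 groups and were tested, 13890 of them protein coding. Calls needed an adjusted p under 0.05 (Benjamini-Hochberg) from limma, fitted to log2(FPKM + 0.1) over all 12 libraries, and a log2 fold change beyond 1 in either direction. Log2 fold changes below are JNK3 KO minus WT on this scale, which understates the change of low genes, and each stands with its standard error (SE) and n = 2 libraries per group. The 4 libraries were alike in the number of genes above 1 FPKM, 14375 to 14431. Photoreceptor RNA was abundant in all 4, with Sag (rod arrestin) between 2457 and 3445 FPKM. The read depth behind a value is unknown because FPKM hold no counts.

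Few genes differed between the genotypes. A total of 38 genes, or 0.231% of those tested, were called, 17 higher in JNK3 KO retinas (0.103%) and 21 lower (0.127%). At an adjusted p under 0.05 with no limit on the fold, 249 genes (1.51%) passed, 182 higher (1.1%) and 67 lower (0.407%), and 2492 had an unadjusted p under 0.05. The excess of higher over lower genes at that adjusted p depended on the scaling, with 94 higher and 72 lower on TPM, 95 and 84 with 75th-percentile scaling and 43 and 91 under quantile normalization. The median absolute log2 difference over all genes was 0.19. Between the same genotypes after NMDA, whose libraries entered the same fit and its estimate of the spread, the median was 0.81, and 5641 genes (34.2%) were called. Of the 38 genes, 21 were protein coding, and 19 carried the name of a predicted gene or pseudogene, 12 of them among the 17 higher genes. Each of the 38 was without overlap between the groups, as were 8841 genes (53.7%) of all those tested. The count of 38 fell to 12 when the spread was estimated from the 4 libraries alone, and to 18 without JNK3 KO replicate 1 and 21 without WT replicate 2.

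**Figure D1:**
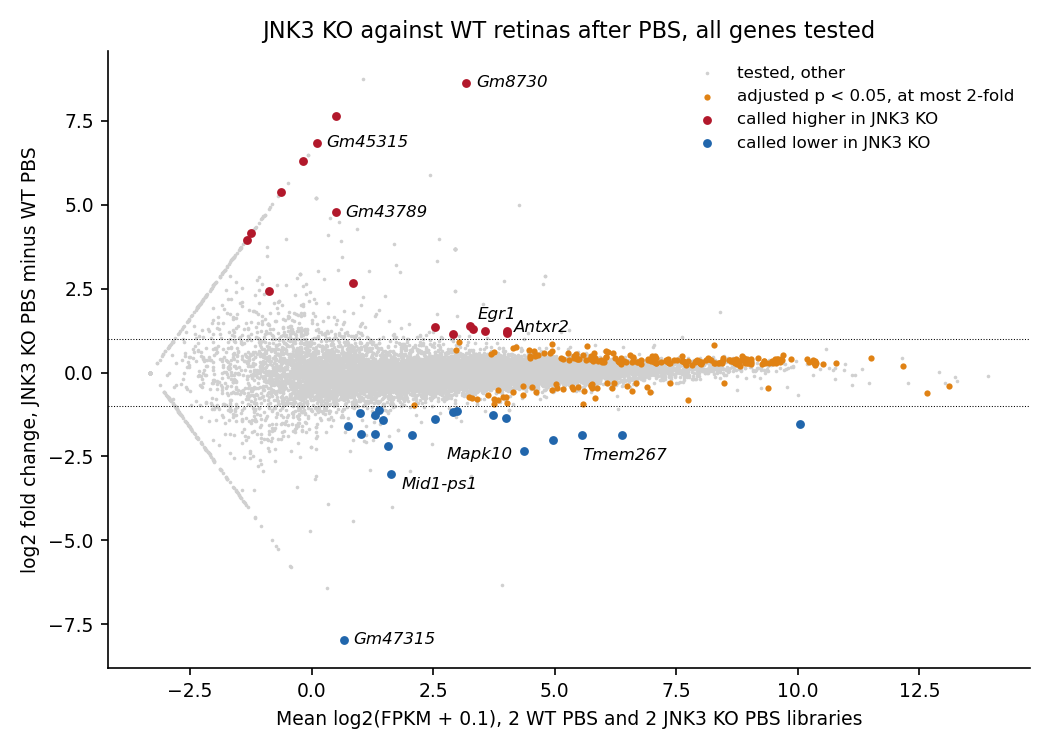
Log2 fold change of JNK3 KO PBS minus WT PBS libraries (vertical axis) against the mean log2(FPKM + 0.1) of the 4 libraries (horizontal axis) for the 16471 genes tested. Red and blue points are the 17 genes called higher and the 21 called lower, orange points passed the adjusted p alone, and dotted lines mark a log2 fold change of 1 either way. Most points lie near 0, with a median absolute difference of 0.19.

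Mapk10, at chr5:102907948-103211334 of GRCm38, was the targeted gene. It measured 42.79 and 50.72 FPKM in the WT libraries and 9.47 and 8.75 FPKM in the JNK3 KO libraries. Both JNK3 KO values lay below both WT values, and the gene fell by 2.34 (log2, SE 0.36, limma adjusted p = 0.0215). The fold held when any of the 4 libraries was left out (-2.47 to -2.22), but the adjusted p then rose to between 0.116 and 0.159. RNA of the locus was thus reduced and still measurable in the knockout. After NMDA the gene did not separate the genotypes, with 8.98 and 6 FPKM in WT and 6.65 and 13.77 FPKM in JNK3 KO libraries.

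The transcript table held 12 Mapk10 transcripts, of which 7 were tested. Mapk10-202 measured 3.02 and 5.58 FPKM in WT libraries and was listed at 0 in both JNK3 KO libraries, and it was the only Mapk10 transcript called (adjusted p = 0.0466 by limma over 49940 transcripts). With NMDA the order was the reverse, listed at 0 in both WT libraries and at 0.47 and 0.29 FPKM in JNK3 KO libraries, so that its absence did not follow the genotype. Mapk10-201 was listed at 0 in all 8 libraries of the other genotypes, and at 3.43 and 1 FPKM in JNK3 KO libraries given PBS and 1.24 and 0.52 FPKM in those given NMDA (adjusted p = 0.0974 for the PBS comparison, not called). Mapk10-209, annotated as a target of nonsense-mediated decay, had 11.12 and 13.4 FPKM in WT and 2.63 and 1.1 FPKM in JNK3 KO libraries (log2 -2.77, SE 0.56, adjusted p = 0.157).

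These transcripts differ in an exchangeable coding exon of 72 bases. GENCODE M21 gives the pair in the order of transcription, with that of Mapk10-202 and 3 further transcripts first, at chr5:102987203-102987274, and that of Mapk10-201 and Mapk10-209 second, at chr5:102976355-102976426, both on the minus strand. Both exons are shown because they tell apart Mapk10-202 and Mapk10-201. Neither exon was confined to a genotype. Mapk10-203, with the exon of Mapk10-202, measured 5.58 and 5.13 FPKM in WT and 0.81 and 2.45 FPKM in JNK3 KO PBS libraries. Mapk10-209, with the other exon, was above 0 in WT libraries, as given above. Capitals mark the 23 bases at which the 2 exons differ (68.1% of bases identical).
Exon of Mapk10-202: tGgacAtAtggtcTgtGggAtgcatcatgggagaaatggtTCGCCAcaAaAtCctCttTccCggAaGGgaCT
Exon of Mapk10-201: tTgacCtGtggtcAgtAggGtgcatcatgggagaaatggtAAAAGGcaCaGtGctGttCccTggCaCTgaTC

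A further difference lay between these 2 exons. Gm43789, a transcript to be experimentally checked (TEC) at chr5:102983842-102986313 on the minus strand, falls in the intron between them and overlaps no exon of Mapk10. It measured 0.15 and 0.19 FPKM in WT and 7.15 and 7.46 FPKM in JNK3 KO libraries, a log2 fold change of 4.78 (SE 0.48, limma adjusted p = 0.00524). The same was seen with NMDA, at 0.19 and 0.7 FPKM in WT and 7.18 and 8.55 FPKM in JNK3 KO libraries. In the 4 shPax6 libraries it did not pass 0.4 FPKM, so that this intron segment, unlike the Mapk10 total, set the 4 JNK3 KO libraries apart from the other 8 under both treatments. The PBS call was lost without JNK3 KO replicate 1 (adjusted p = 0.0531).

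The remaining JNK genes and the pathway around them showed no called gene, beside 0.231% of all genes tested, a share at which short lists seldom hold one. Mapk9 (JNK2) measured 48.19 and 45.35 FPKM in WT and 37.08 and 38.81 FPKM in JNK3 KO libraries (log2 -0.30, SE 0.11, adjusted p = 0.245). Mapk8 (JNK1) had 25.76 and 27.06 FPKM in WT and 24.03 and 25.82 FPKM in JNK3 KO libraries, which overlapped (log2 -0.08, SE 0.12, adjusted p = 0.846). Neither passed the test.

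None of 19 upstream kinases of the JNK pathway, 8 scaffolds that hold its kinases together, 11 phosphatases, 24 JNK substrates and 11 other MAP kinases passed an adjusted p under 0.05 in either direction. Their median log2 fold changes were -0.14, -0.16, -0.13, -0.06 and -0.02, beside 0 for all genes tested. Of them, 4, 1, 2, 4 and 1 had an unadjusted p under 0.05. Over all genes tested 1.51% passed the adjusted p, and 2492 of 16471 had an unadjusted p under 0.05. Counts of 0 in lists of this size are near the former share. Of 19 AP-1 factors 2 passed the adjusted p, both higher and at less than 2-fold. These were Atf4, the main transcription factor of the integrated stress response (159.39 and 170.27 FPKM in WT, 239.41 and 226.95 FPKM in JNK3 KO, log2 0.50, SE 0.05, adjusted p = 0.00524), and Atf3, a stress-induced partner of Jun (18.73 and 16.2 FPKM in WT, 27.66 and 28.09 FPKM in JNK3 KO, log2 0.68, SE 0.11, adjusted p = 0.0263). Jun itself, the substrate that gave the kinases their name, measured 23.08 and 22.1 FPKM in WT and 23.78 and 23.23 FPKM in JNK3 KO libraries, without overlap but by a log2 difference of 0.06 (SE 0.09, adjusted p = 0.85). Pax6, which JNK3 is studied with here, had a log2 fold change of 0.11 (adjusted p = 0.533). Genes below that passed the adjusted p but were under 2-fold, and Gm8730, were chosen for naming after their values were seen.

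**Figure D2:**
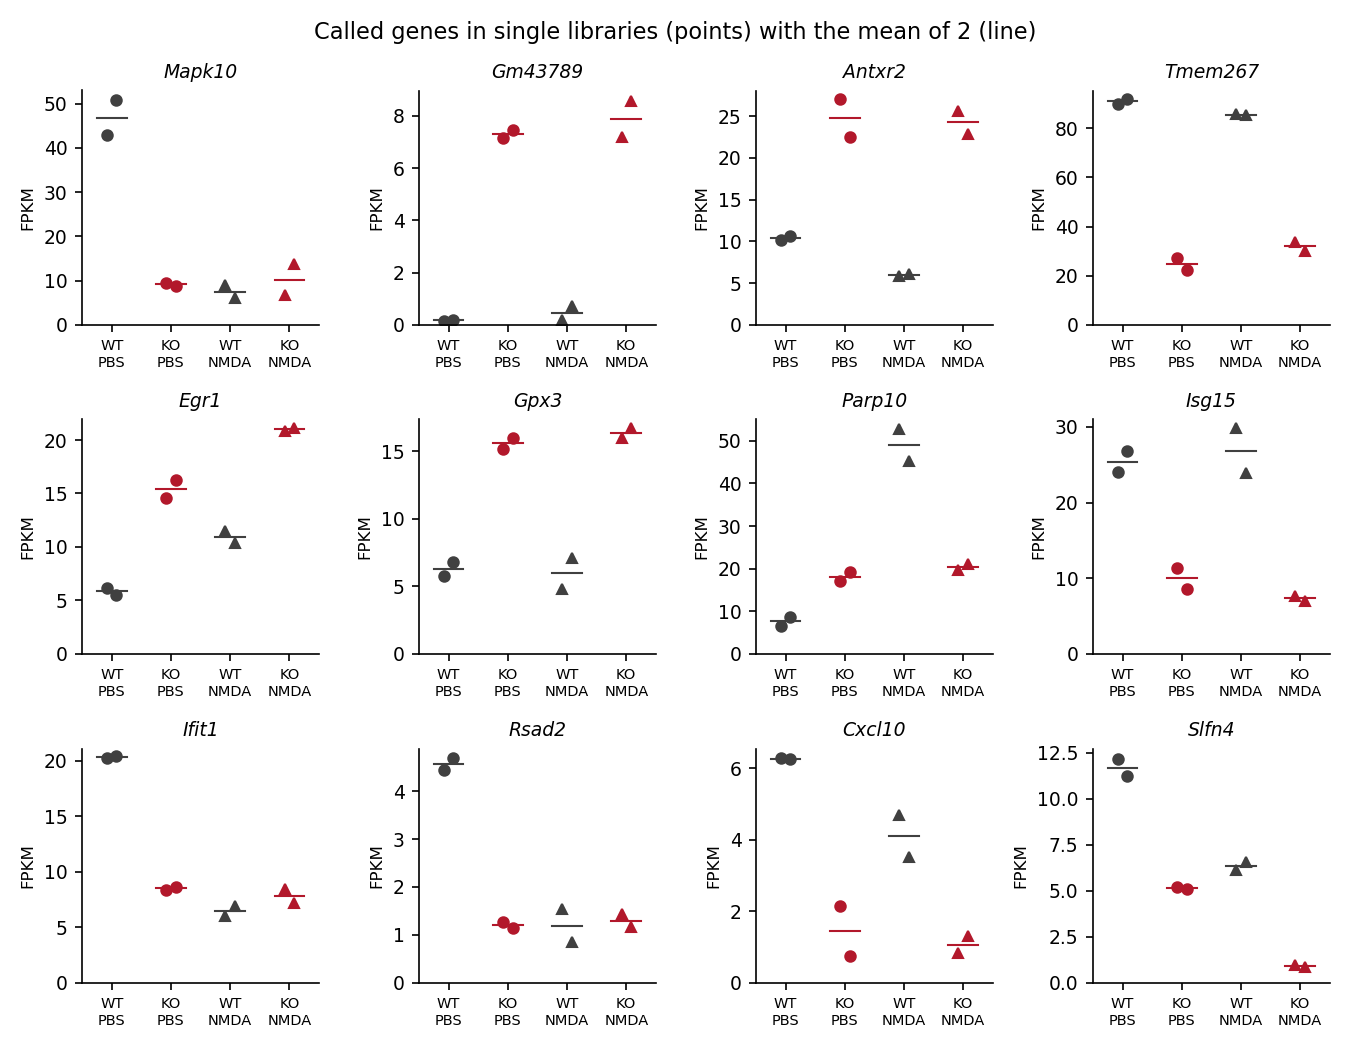
FPKM of 12 called genes in each library (points, linear axis from 0) of WT and JNK3 KO (KO) retinas given PBS or NMDA, with the mean of the 2 libraries as a line. Mapk10 separates the genotypes with PBS and not with NMDA, whereas Gm43789 separates them with both, at 7.15 FPKM or more in each KO library and 0.7 FPKM or less in each WT library.

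The share of genes called was higher close to Mapk10 on chromosome 5 than over all other tested genes. Sequence next to a targeted gene is inherited with it, so genes of this region were counted on their own, as a description with no test of the share. Within 20 Mb of Mapk10, 348 other genes were tested, of which 6 were called (1.72%). Among all other tested genes the share was 31 of 16122 (0.192%), and on the rest of chromosome 5 it was 1 of 749 (0.134%). The Y chromosome stood higher, with 2 of 10 tested genes called (20%), Mid1-ps1 and Gm47283, both lower. By distance, 2 of 69 genes within 5 Mb, 1 of 84 at 5 to 10 Mb and 3 of 195 at 10 to 20 Mb were called. At an adjusted p under 0.05 with no fold limit the region held 16 of 348 genes (4.6%), 10 higher and 6 lower, against 232 of 16122 elsewhere (1.44%). The bulk of the region did not differ in this way, since its median absolute log2 difference was 0.21, against 0.19 elsewhere. The count of 6 fell to 2 without WT replicate 1, WT replicate 2 or JNK3 KO replicate 1, to 3 without JNK3 KO replicate 2, and to 2 with the spread taken from the 4 libraries alone. The part that linked sequence had in these values was not tested.

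**Figure D3:**
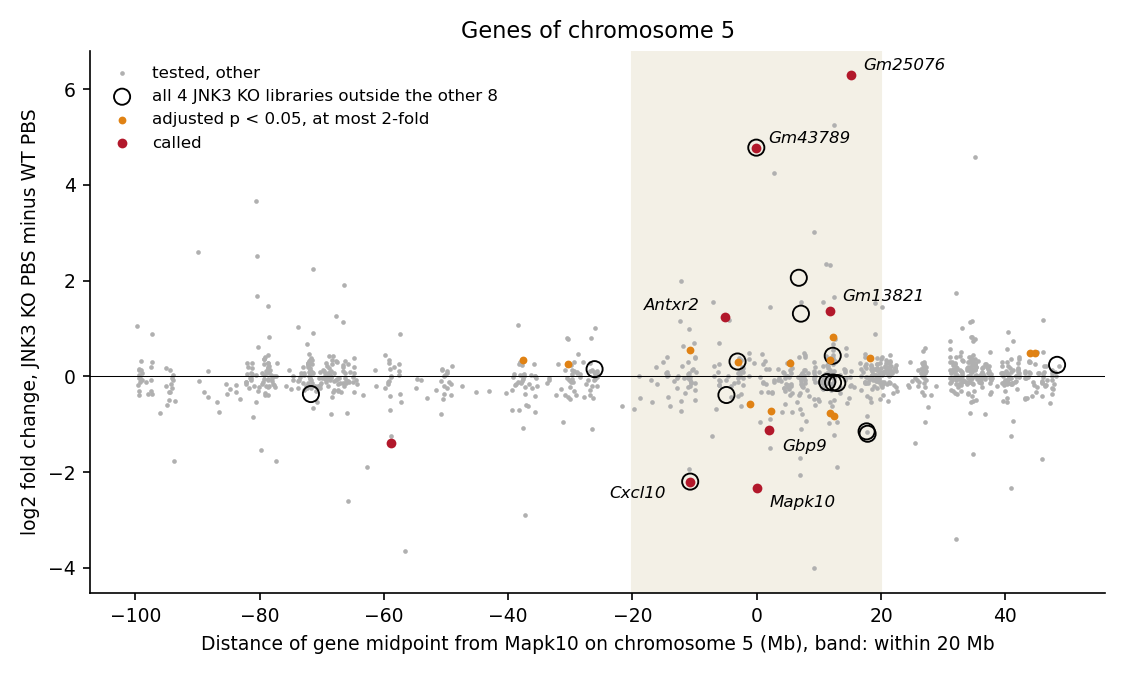
Log2 fold change of JNK3 KO PBS minus WT PBS libraries for the tested genes of chromosome 5, by distance of the gene's midpoint from Mapk10 in Mb. Red points were called, orange points passed the adjusted p alone, open circles mark genes with all 4 JNK3 KO libraries above or below the other 8, and the shaded band covers 20 Mb on either side, where 6 genes besides Mapk10 were called.

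Among these genes Antxr2, which encodes an anthrax toxin receptor that binds extracellular matrix, lies 5.10 Mb from Mapk10. It measured 10.2 and 10.61 FPKM in WT and 27 and 22.46 FPKM in JNK3 KO libraries and rose by 1.24 (log2, SE 0.14, limma adjusted p = 0.00685). The groups were far apart relative to their spread, although the shPax6 PBS libraries, at 20.05 and 20.04 FPKM, were close to the JNK3 KO ones. It was larger with NMDA, at 5.89 and 6.12 FPKM in WT and 25.65 and 22.83 FPKM in JNK3 KO libraries (log2 1.99, interaction adjusted p = 0.0106).

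Cxcl10, an interferon-induced chemokine that draws T cells, lies 10.71 Mb away. Its WT libraries were at 6.28 and 6.27 FPKM and its JNK3 KO libraries at 2.15 and 0.75 FPKM (log2 -2.20, SE 0.40, adjusted p = 0.037), and the difference ran from -2.91 to -1.5 with 1 of the 4 libraries left out. With NMDA it measured 4.7 and 3.53 FPKM in WT and 0.84 and 1.3 FPKM in JNK3 KO libraries, so that all 4 JNK3 KO libraries were below the 8 others. Gbp9, a guanylate-binding protein of the interferon response 2.05 Mb away, fell from 3.44 and 4.07 FPKM to 1.54 and 1.81 FPKM (log2 -1.12, SE 0.20, adjusted p = 0.0321). With NMDA its order was the reverse, at 0.84 and 0.89 FPKM in WT and 1.89 and 2.01 FPKM in JNK3 KO libraries.

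The remaining 2 called genes of the region were not protein coding. Gm13821, a TEC transcript 11.78 Mb away, rose from 3.43 and 3.57 FPKM to 8.87 and 9.49 FPKM (log2 1.37, SE 0.16, adjusted p = 0.00849), and with NMDA it was at 1.76 and 1.45 FPKM in WT and 15.05 and 15.24 FPKM in JNK3 KO libraries. Gm25076, a small nucleolar RNA gene of 132 bases 15.21 Mb away, was at 7.93 and 7.53 FPKM in the JNK3 KO PBS libraries and was listed at 0 in the other 10 libraries, JNK3 KO libraries given NMDA included. It therefore did not follow the genotype. With 0 in 10 libraries its spread was small in any fit, so a call kept without a library says little for it. With a library left out, Gm25076 remained called in all 4 fits. Gbp9 and Gm13821 were called in none of them (adjusted p up to 0.196 and 0.0822). Antxr2 was called only without JNK3 KO replicate 2, where its adjusted p was 0.0229 (up to 0.0782 in the others), and Cxcl10 only without JNK3 KO replicate 1, at 0.0165 (up to 0.278).

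Several genes of the region passed the adjusted p at less than 2-fold. Pde6b, a subunit of the rod phosphodiesterase, was the most abundant of those that rose, from 578.92 and 589.08 FPKM to 710.67 and 703.81 FPKM (log2 0.28, adjusted p = 0.0085). Cox6a1, a subunit of cytochrome c oxidase, rose from 240.59 and 221.63 FPKM to 434.4 and 388.12 FPKM (log2 0.83, adjusted p = 0.00652). Ppef2, a phosphatase of photoreceptors, went from 35.06 and 35.87 FPKM to 54.05 and 49.77 FPKM (log2 0.55), and Hnrnpd, an RNA-binding protein, from 127.48 and 132.68 FPKM to 168.6 and 154.93 FPKM (log2 0.31). Wdfy3, which acts in selective autophagy, fell from 31.64 and 28.06 FPKM to 20.2 and 19.81 FPKM (log2 -0.57). None of these 5 genes overlapped between the PBS groups, as held for 53.7% of all genes tested.

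A stricter description used all 12 libraries and asked for genes with all 4 JNK3 KO libraries above, or all 4 below, the other 8, irrespective of treatment. It held for 127 genes (0.771% of those tested), 80 above and 47 below, 11 of them among the 38 called. Within 20 Mb of Mapk10 it held for 12 of 348 genes (3.45%), against 115 of 16122 elsewhere (0.713%) and 3 of 749 on the rest of chromosome 5 (0.401%). Besides Gm43789, Cxcl10 and Hnrnpd these were Prdm8, Gm10416, Gm15787, Ube3b, Coq5, Gatc, Prkab1, Oas2 and Oas1a. Oas1a and Oas2 are neighbouring antiviral 2',5'-oligoadenylate synthetases. Oas1a measured 4.67 and 4.11 FPKM in WT PBS and 2.14 and 1.61 FPKM in JNK3 KO PBS libraries (log2 -1.20, adjusted p = 0.0515), which missed the threshold, and 3.67 and 5.98 against 2.09 and 1.94 FPKM with NMDA.

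Genes of the interferon response were called outside that region as well. Interferons act through a complex that holds STAT2 and IRF9, which binds the interferon-stimulated response element and turns on antiviral genes. All 36 listed genes were tested. At an adjusted p under 0.05, 9 were lower in JNK3 KO retinas and 6 higher, and 4 of the 9 were called, beside the shares of 0.407%, 1.1% and 0.127% for all genes. The median log2 fold change of the list was -0.48, beside 0 for all genes tested.

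The lower genes were antiviral effectors. Rsad2 (viperin) measured 4.44 and 4.7 FPKM in WT and 1.26 and 1.15 FPKM in JNK3 KO libraries, and it fell by 1.84 (log2, SE 0.26, limma adjusted p = 0.0174). Isg15, a ubiquitin-like protein attached to others after interferon, went from 24 and 26.78 FPKM to 11.37 and 8.61 FPKM (log2 -1.35, SE 0.15, adjusted p = 0.00685). Ifit1, which binds viral RNA, measured 20.26 and 20.37 FPKM in WT and 8.32 and 8.66 FPKM in JNK3 KO libraries (log2 -1.25, SE 0.12, adjusted p = 0.00356). In each of them the genotypes were further apart than the libraries of a genotype, which selection by the test favours. The neighbours of Ifit1 were lower by less than 2-fold, Ifit3 from 65.12 and 68.27 FPKM to 35 and 34.62 FPKM (log2 -0.94, adjusted p = 0.00132) and Ifit3b by the same log2 difference. The rest of the 9 were Gbp2 (log2 -0.92) and, within 20 Mb of Mapk10, Gbp9, Oasl2 (log2 -0.77) and Gbp6 (log2 -0.73).

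The higher genes were in the main the regulators of the same response. Stat2 rose from 54.43 and 56.72 FPKM to 81.85 and 86.89 FPKM (log2 0.60, SE 0.11, adjusted p = 0.0321). Irf9, its partner, went from 54.49 and 54.82 FPKM to 71.87 and 70 FPKM (log2 0.38, adjusted p = 0.0212). Irf7 (log2 0.79) and Irf1 (log2 0.74), transcription factors that interferon induces, and Igtp (log2 0.63), an interferon-induced GTPase, were also among the 6. The RNA of these transcription factors and that of several of their known targets thus differed in opposite directions. Neither set overlapped between the genotypes, as held for 53.7% of all genes tested.

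A number of interferon genes sit near Mapk10. Of the 36, 7 lay within 20 Mb, of which 3 passed, all lower. Of the 29 elsewhere 6 were higher and 6 lower, with 3 called and a median of -0.32. The count of lower genes was 7 to 10 under TPM, 75th-percentile and quantile scaling and the length correction described below, and that of higher genes 2 to 5. It was far less stable to the loss of a library, with 2 lower genes without WT replicate 1 or WT replicate 2, 3 without JNK3 KO replicate 1 and 4 without JNK3 KO replicate 2, and 0, 0, 0 and 1 higher. With the spread taken from the 4 libraries alone, limma gave 0 in either direction. Without WT NMDA replicate 2, which lends only its spread, 9 were lower and 3 higher. Ifit1 was called in all 4 fits that left out a PBS library. Isg15 lost the call without WT replicate 1 (adjusted p = 0.0521) and WT replicate 2 (0.0615), and Rsad2 lost it in all 4 (0.0857 to 0.136).

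**Figure D4:**
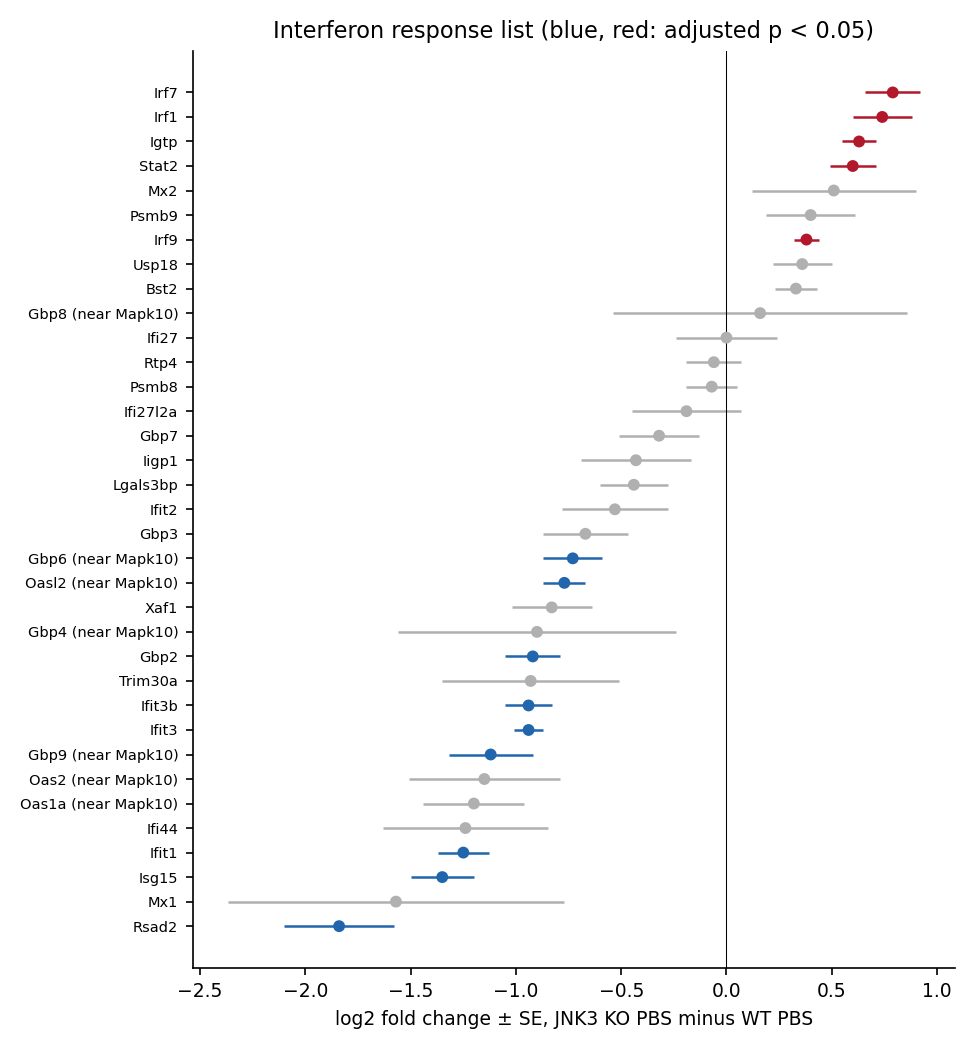
Log2 fold change (points) with SE (lines) of genes of the interferon response list, JNK3 KO PBS minus WT PBS, with 1 member not plotted. Red and blue mark higher and lower genes at an adjusted p under 0.05, and genes within 20 Mb of Mapk10 are marked as near it. Stat2, Irf1, Irf7 and Irf9 lie to the right of 0, and Rsad2, Isg15 and the Ifit genes to the left.

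After NMDA the pattern was not the same gene for gene. Isg15 was lower in JNK3 KO retinas with NMDA as well, at 29.85 and 23.9 FPKM in WT and 7.63 and 7.04 FPKM in JNK3 KO libraries (log2 -1.85, adjusted p = 7.49e-06). Ifit1 and Rsad2 were already at the JNK3 KO level in WT retinas given NMDA. Ifit1 had 6.02 and 6.87 FPKM there and 8.47 and 7.22 FPKM in JNK3 KO libraries, and Rsad2 had 1.53 and 0.86 FPKM against 1.43 and 1.17 FPKM. For both, the interaction of genotype with treatment passed the limma test (adjusted p = 6.24e-05 and 0.00161), as it did for 8472 genes or 51.4% of those tested. This term contains the PBS difference by which both genes were called.

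Promoters of these genes were searched for the core of the interferon-stimulated response element, spelled GAAA, any 2 bases and GAAA again, on either strand, in RefSeq windows from 250 bases before to 50 bases after the start of transcription (GRCm38.p6). The element was found in 443 of 11573 tested genes with a window (3.83%) and in 3.44% of all 32851 windows. It was found in 6 of the 7 lower interferon genes with a window and in 2 of the 5 higher ones, and in 13 of 23 over the list. Of the 12 called lower genes with a window, 5 held it, namely Cxcl10, Ifit1, Isg15, Mapk10 and Rsad2, and none of the 4 called higher genes did. The AP-1 site TGACTCA, also searched on either strand, was found in 3 of the 12 (Cxcl10, Rsad2 and Slfn4) and in 4.49% of tested genes. A match describes the letters and not a bound site. The windows below show the element in 4 called lower genes and in Stat2, which was higher, as 60 bases in the direction of transcription with every match in capitals. On the opposite strand the element reads TTTC, any 2 bases and TTTC, and in Isg15 several matches overlap.
Isg15, chr4:156200850-156200909 (-): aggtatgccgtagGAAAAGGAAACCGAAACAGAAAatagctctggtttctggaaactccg
Ifit1, chr19:34640779-34640838 (+): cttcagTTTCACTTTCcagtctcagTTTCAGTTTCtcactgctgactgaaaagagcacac
Rsad2, chr12:26456538-26456597 (-): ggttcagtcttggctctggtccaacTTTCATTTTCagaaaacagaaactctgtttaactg
Cxcl10, chr5:92349068-92349127 (-): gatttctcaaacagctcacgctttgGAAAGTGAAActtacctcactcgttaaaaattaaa
Stat2, chr10:128270251-128270310 (+): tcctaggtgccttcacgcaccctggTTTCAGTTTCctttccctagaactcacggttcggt

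Other protein-coding genes outside the region were called without belonging to a list that moved as a whole. One of them was Tmem267, a transmembrane protein of little-known function at chr13:119488039-119611059. Its WT libraries were at 90.06 and 91.94 FPKM and its JNK3 KO libraries at 27.29 and 22.5 FPKM, and it fell by 1.87 (log2, SE 0.10, limma adjusted p = 0.000211). It stayed lower with NMDA, at 85.7 and 85.49 FPKM in WT and 33.85 and 29.91 FPKM in JNK3 KO libraries, and the shPax6 PBS libraries, at 63.02 and 58.81 FPKM, lay between. Tmem267 lies close to Nnt (chr13:119335528-119408952), a gene that differs between C57BL/6 substrains. The part of substrain in the values of Tmem267 was not tested. The gene was called in each of the 4 fits without a library (adjusted p at most 0.00923).

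Egr1, an immediate early transcription factor, measured 6.14 and 5.53 FPKM in WT and 14.57 and 16.26 FPKM in JNK3 KO libraries. It rose by 1.39 (log2, SE 0.10, limma adjusted p = 0.00116) and was called in each fit without a library. It was the only 1 of 23 immediate early genes to pass an adjusted p under 0.05, beside 1.51% of all genes tested, and the median of that list was 0.10. With NMDA the order was the same, at 11.53 and 10.4 FPKM in WT and 20.85 and 21.14 FPKM in JNK3 KO libraries. The shPax6 PBS libraries, at 12.5 and 11.72 FPKM, were above WT as well.

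Gpx3, a secreted glutathione peroxidase, measured 5.77 and 6.8 FPKM in WT and 15.16 and 16.03 FPKM in JNK3 KO libraries (log2 1.30, SE 0.21, limma adjusted p = 0.0257). With NMDA the values were nearly the same, 4.79 and 7.13 FPKM in WT and 16.01 and 16.77 FPKM in JNK3 KO libraries. Of 22 genes of the oxidative stress response, Gpx3 and Gpx4 alone passed the adjusted p, beside 1.51% of all genes tested.

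Parp10, which attaches ADP-ribose to proteins, rose from 6.56 and 8.72 FPKM to 17 and 19.29 FPKM (log2 1.25, SE 0.16, adjusted p = 0.00943). Arrdc2, an arrestin-domain protein, rose from 5.19 and 4.7 FPKM to 10.49 and 11.48 FPKM (log2 1.14, SE 0.15, adjusted p = 0.0131). Both were reversed after NMDA, where Parp10 had 52.71 and 45.32 FPKM in WT and 19.58 and 21.06 FPKM in JNK3 KO libraries (log2 -1.26) and Arrdc2 a log2 fold change of -1.04. Parp10 was called only without WT replicate 2 among the 4 fits that left out a library (adjusted p = 0.0255, and up to 0.0787 in the others). Gpx3 and Arrdc2 were called in none (up to 0.248 and 0.0903).

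Further lower genes were Ly6c2, Ifi204 and Slfn4. Ly6c2, a surface protein of monocytes and endothelium, measured 7.71 and 8.01 FPKM in WT and 1.9 and 2.33 FPKM in JNK3 KO libraries (log2 -1.85, SE 0.23, limma adjusted p = 0.00892). Ifi204, an interferon-induced DNA sensor, went from 4.98 and 3.94 FPKM to 1.51 and 1.68 FPKM (log2 -1.42, SE 0.20, adjusted p = 0.0174), and Slfn4, a schlafen gene of myeloid cells, from 12.16 and 11.21 FPKM to 5.21 and 5.11 FPKM (log2 -1.16, SE 0.19, adjusted p = 0.0263). All 3 were separated between the PBS groups, as were 53.7% of all genes tested. In the shPax6 PBS libraries Slfn4 was lower still, at 0.84 and 0.91 FPKM. Of 20 microglia and macrophage genes 1 was lower and none higher at an adjusted p under 0.05 (median 0.11). Of 11 neutrophil and 17 endothelial genes none passed (medians -0.36 and -0.08, with 2 and 0 at an unadjusted p under 0.05). Over all genes tested 1.51% passed the adjusted p, and 2492 of 16471 had an unadjusted p under 0.05. A lower number of cells of a type and less RNA per cell cannot be told apart in bulk retina.

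Thsd7a, a membrane protein with thrombospondin repeats, fell from 11.97 and 10.3 FPKM to 4.75 and 4.96 FPKM (log2 -1.18, SE 0.22, adjusted p = 0.0395). It was reversed with NMDA (log2 2.54). Muc2, a gel-forming mucin, measured 3.08 and 4.4 FPKM in WT and 1.29 and 0.73 FPKM in JNK3 KO libraries (log2 -1.82, SE 0.36, adjusted p = 0.0498), and Mamstr, a coactivator of MEF2, 4.21 and 3.36 against 1.66 and 1.35 FPKM (log2 -1.27, SE 0.25, adjusted p = 0.0485). The last pair lay just inside the threshold. Of these 6 lower genes, Ly6c2 was called without JNK3 KO replicate 2 (adjusted p = 0.0377) and in no other fit that left out a library, where its adjusted p reached 0.0984. The other 5 were called in none, with adjusted p up to 0.156 for Ifi204, 0.248 for Slfn4, 0.296 for Thsd7a, 0.236 for Muc2 and 0.335 for Mamstr.

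Some of the called genes with large fold changes share sequence with another gene. Gm8730 is a processed pseudogene at chr8:102864845-102865798, that is, a spliced copy of Rplp0, which encodes the ribosomal stalk protein P0. Gm8730 measured 0.36 and 0.35 FPKM in WT and 181.89 and 177.84 FPKM in JNK3 KO libraries (log2 8.63, SE 1.00, limma adjusted p = 0.007). Rplp0, on chromosome 5 and within 20 Mb of Mapk10, measured 279.84 and 288.47 FPKM in WT and 168.25 and 153.13 FPKM in JNK3 KO libraries, and fell by 0.82 (log2, adjusted p = 0.00264). The gain of the copy and the loss of the parent went together in the same libraries.

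The copy took 51.9% and 53.7% of the FPKM of the pair in the JNK3 KO PBS libraries, against 0.128% and 0.121% in WT. With NMDA it took 51.3% and 52% in JNK3 KO libraries, and 0.129% and 2.22% in WT, where replicate 2 stood at 22.25 FPKM against 1.34 FPKM in replicate 1. In the 4 shPax6 libraries the share was at most 0.16%. Summed over Rplp0, Gm8730 and a further copy, Gm6278, the values were 280.2 and 288.82 FPKM in WT and 352.25 and 332.33 FPKM in JNK3 KO libraries. The sum was slightly higher in JNK3 KO libraries and did not pass the test (log2 0.27, SE 0.06, adjusted p = 0.0883). The separate values of Rplp0 and Gm8730 are therefore uncertain. Whether WT NMDA replicate 2 held some JNK3 KO RNA was not tested, and the WT NMDA values given throughout carry this limit. Without that library the SE of Gm8730 was 0.39 (adjusted p = 0.000446), whereas with it in the fit and any 1 of the 4 PBS libraries left out the call was lost (adjusted p = 0.0545 to 0.0853).

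The coding sequence of Rplp0 and Gm8730 aligned over 954 bases with 12 differences (98.7% identical), and 77 of 854 windows of 101 bases, the length of a read, held none of them (9.02%). A stretch of 80 bases is shown, bases 494 to 573 of Rplp0-201 and 373 to 452 of Gm8730-201 in GENCODE M21 and GRCm38, because reads of these genes can be told apart only at such positions, here the 3 in capitals.
Rplp0: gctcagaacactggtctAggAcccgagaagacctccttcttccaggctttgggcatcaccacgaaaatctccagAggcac
Gm8730: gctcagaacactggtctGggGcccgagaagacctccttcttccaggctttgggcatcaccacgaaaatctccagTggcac

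**Figure D5:**
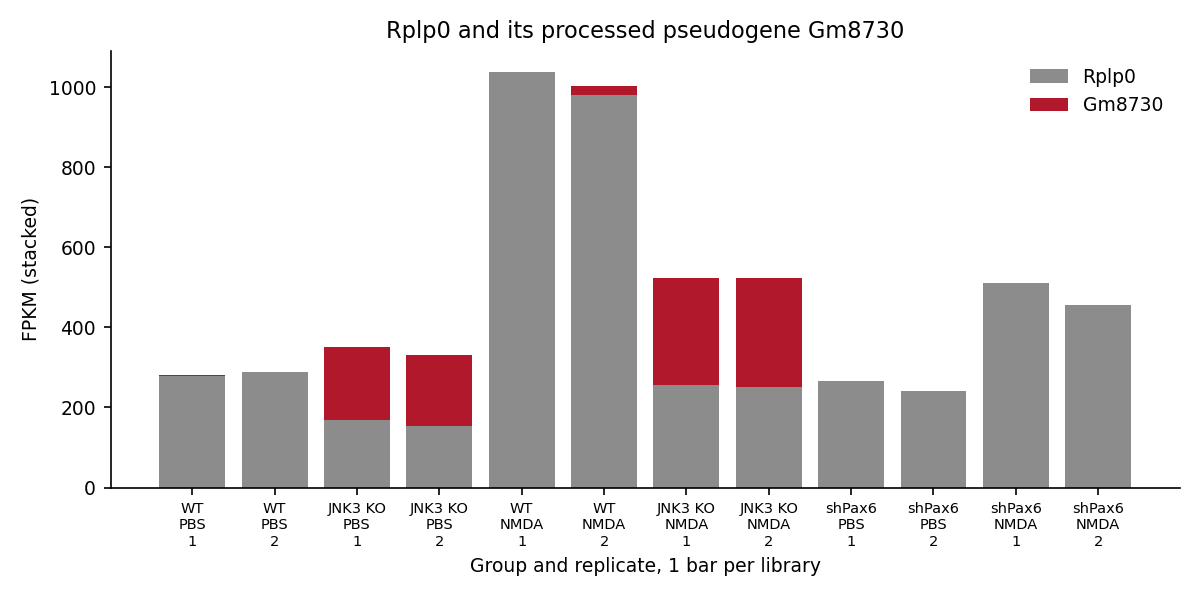
FPKM of Rplp0 (grey) and its processed pseudogene Gm8730 (red), stacked, in each of the 12 libraries. The pseudogene takes 51.3% to 53.7% of the pair in the 4 JNK3 KO libraries and at most 2.22% in the other 8.

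Other predicted genes among the 38 also shared sequence with another gene. Gm45315, listed at 0 in both WT libraries and at 10.18 and 12.83 FPKM in JNK3 KO libraries, matches Hmgb1 over 332 bases at 98.8%, and the sum of Hmgb1 and its copies did not pass the test (log2 0.12, adjusted p = 0.212). Gm6158 matches Cnot1 (99.8%), Gm10132 Rpl23a (99.8%), Gm27533 Neat1 (100% over 152 bases), Scp2-ps2 Scp2 (99.6%), Gm47315 Kansl1 (99.3%) and Gm10222 the mitochondrial mt-Nd4l (100%). Mid1-ps1, on the Y chromosome, matches Mid1 at 99.6%. It measured 9.92 and 7.79 FPKM in WT and 0.99 and 1 FPKM in JNK3 KO libraries, and the sum with Mid1 remained lower, at 27.5 and 24.73 FPKM in WT and 19.09 and 18.22 FPKM in JNK3 KO libraries (log2 -0.48, adjusted p = 0.038). Values of such genes are uncertain, because reads of near-identical sequences can be shared among them. How far this bears on each of these genes was not tested. The rest of the 38 were Gm47283, which was also on the Y chromosome and lower, Gm46620, Gm42427, Gm47647, Gm49980, AU021092 and Zfp991. Of these, Gm47283 matches Gm21887 (98.4% over 516 bases) and Gm42427 matches Chd9 (97.6% over 337 bases). Gm49980 matches Gm10524 (95.3% over 633 bases) and Gm46620 matches AI506816 (90.8% over 1857 bases). The same uncertainty may bear on them.

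Part of the rod, cytosolic ribosomal and respiratory chain genes were slightly higher. Of 20 rod genes 13 passed an adjusted p under 0.05, all higher, with a median log2 fold change of 0.26. Over all genes tested 1.1% were higher and 0.407% lower at that adjusted p. Sag (rod arrestin) rose from 2457 and 2574 FPKM to 3445 and 3334 FPKM (log2 0.43, SE 0.04, adjusted p = 0.00264). Of 95 cytosolic ribosomal protein genes 32 passed, all higher, with a median of 0.33, and of 91 nuclear respiratory chain genes 10 passed, all higher, with a median of 0.29. Of 15 cone genes 1 passed and was higher (median 0.11), as was 1 of 78 mitochondrial ribosomal genes (median 0.26). The 13 respiratory genes encoded in mitochondria lay on the other side, with 12 negative log2 fold changes and a median of -0.32. Of these mt-Atp8, a subunit of ATP synthase, alone passed, falling from 8119.9 and 7794.13 FPKM to 5089.33 and 5424.24 FPKM (log2 -0.60, adjusted p = 0.0494), and on TPM and under quantile normalization 0 of the 13 passed.

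These gains went with transcript length and level and with the scaling. Across 16452 genes the log2 fold change had a Spearman correlation of -0.272 with exon length and 0.208 with the mean level, as a description over genes that are not independent. Medians over 5 bins of rising length were 0.11, 0.09, 0.03, -0.03 and -0.13. Of the 792 genes above 100 FPKM, 108 were higher (13.6%) and 11 lower (1.39%) at the adjusted p. After removal of the length trend the counts were 7 of 20 for rod and 14 of 95 for cytosolic ribosomal genes. For respiratory chain genes the count of 10 fell to 2 with that removal, 1 under quantile normalization, 3 with 75th-percentile scaling and 4 on TPM. Under quantile normalization rod and ribosomal counts were 0 (median 0.07) and 2 (median 0.13), and with WT replicate 1, WT replicate 2, JNK3 KO replicate 1 or JNK3 KO replicate 2 left out they were 2, 4, 1 and 5 for rod and 1, 6, 0 and 8 for ribosomal genes. Without WT NMDA replicate 2 they were 9 and 21. Long genes of neurons were at the other end without passing the test. Of 32 voltage-gated channel genes 28 had a negative log2 fold change (median -0.34), with 12 at an unadjusted p under 0.05 and none at an adjusted one. Of 53 clustered protocadherins 0 passed (median -0.26), with 3 at an unadjusted p under 0.05. Over all genes tested 2492 of 16471 had such an unadjusted p.

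Few genes of other retinal cell types passed the adjusted p, beside 1.51% of all genes tested. An unadjusted p under 0.05 was found for 2492 of all 16471 genes. None of 19 genes of retinal ganglion cells (RGCs, the output neurons that NMDA kills), 17 amacrine and 10 horizontal cell genes passed, with medians of -0.14, -0.08 and -0.18 and 1, 1 and 3 genes at an unadjusted p under 0.05, and 1 of 16 bipolar cell genes was lower (Trpm1). Of 16 Müller glia genes 2 were higher, Glul (glutamine synthetase, log2 0.36) and Car14 (log2 0.75), with a median of -0.02, whereas under quantile normalization 1 was higher and 2 were lower. Of 21 genes of gliosis and the acute response Edn2 was higher (log2 0.46) and 3 were lower, namely Lcn2, an iron-sequestering protein that reactive glia secrete, from 773.69 and 804.78 FPKM to 585.51 and 562.56 FPKM (log2 -0.46, adjusted p = 0.00524), Cp and Serpina3n (log2 -0.30 each). Gfap, the classical marker of reactive glia, overlapped between the groups (78.01 and 81.59 FPKM in WT, 83.16 and 80.32 FPKM in JNK3 KO).

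None of the listed genes of cell death passed, which in lists of this size is near the 1.51% of all genes tested. At an adjusted p under 0.05 by limma 0 of 37 pro-apoptotic and 0 of 13 anti-apoptotic genes differed, with medians of 0.10 and -0.11. Of them, 7 and 2 had an unadjusted p under 0.05, beside 2492 of all 16471 genes tested. Of 23 genes of the unfolded protein and integrated stress response 3 were higher, Atf4, Atf3 and Herpud1 (log2 0.53, adjusted p = 0.042), the last a part of the degradation of misfolded proteins, and the median was 0.21. Of 20 heat shock and 19 circadian clock genes none passed, with 8 and 7 at an unadjusted p under 0.05.

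The 38 genes were then looked up in the NMDA comparison of the same genotypes. The FPKM of the WT NMDA libraries summed to 805627 and 820180, against 541210 to 576922 in the 4 PBS libraries, which bears on every difference from them. In that comparison 19.5% of tested genes (3208) were called higher and 14.8% (2433) lower, and on TPM 5392 were higher and 984 lower. In the same direction 16 were called, 8 higher and 8 lower, in the opposite direction 8, 4 each way, and 14 were not called. The difference between the 2 comparisons passed an adjusted p under 0.05 for 27 of the 38, beside 51.4% of all genes tested. It contains the PBS difference by which the 38 were called, so selection favours its passing and the 2 shares are not alike. Against shPax6 PBS, the other PBS group, 31 of the 38 had both JNK3 KO PBS libraries beyond both shPax6 PBS libraries on the side they were called. The same held for 23.8% of all genes tested, and for 44.4% of the 8841 genes whose JNK3 KO and WT libraries did not overlap. The 38 were called through the same JNK3 KO PBS libraries, which favours this outcome. The count is therefore no independent support for the calls.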

How the data were processed

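RNA of 12 mouse retina libraries, 2 for each of 6 groups of genotype and treatment, was analysed, with groups taken from the labels. Libraries were made with the TruSeq mRNA kit and sequenced as paired reads of 101 bases. The authors deposited FPKM per gene and per transcript, with STAR 2.7.1a, RSEM 1.3.3, edgeR 3.36.0, R 4.1.0 and GRCm38.p6 named in the submitters' processing notes. FPKM are not counts, so edgeR was not used here. The depth behind single values is unknown, so precision was judged from replicates.

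Values were put on the scale log2(FPKM + 0.1). Features with a mean above 1 FPKM in at least 1 group were fitted with 6 group means in limma 3.58.1 (lmFit, contrasts.fit, eBayes with trend; 6 residual degrees of freedom) in R 4.3.3 with the package data.table, version 1.17.8. P-values were Benjamini-Hochberg adjusted over all features tested and calls needed an adjusted p under 0.05 and an absolute log2 fold change above 1. The steps were tested on simulated data.

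Named genes were Mapk10, Mapk8, Mapk9, Pax6, called JNK-pathway genes, called genes within 20 Mb of Mapk10, up to 12 called protein-coding genes each way with a mean above 1 FPKM in both groups, the 5 most abundant called ones, and called list members. Predicted genes elsewhere were counted, with exceptions named in the text. Members and lists were chosen with earlier results of these data known. List counts include members whose own values are not reported here.

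Sequences were matched with BLAST 2.17.0 in Python 3.11.15 with pandas 2.3.3. Alternatives were pseudocounts of 0.5 and 1, other filters, TPM, 75th-percentile and quantile scaling, and a length correction (lowess span 0.3). Others were fits on the 4 or 6 PBS libraries, no trend, a replicate block, and each library of the compared groups left out. No shPax6 library was left out singly, although these libraries also entered the estimate of the spread. The list counts and medians under these settings, the rule on all 4 JNK3 KO libraries the copy sums and the fit without WT NMDA replicate 2 were added after the data were seen.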

Additional observations from a re-analysis of the deposited data

Results flagged for a closer look

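For 15 of the 21 called genes named above, the difference of JNK3 KO from WT was not the same with NMDA as with PBS, by the interaction term of limma (adjusted p under 0.05), as for 51.4% of all genes tested. The values are the log2 difference with NMDA less that with PBS. They contain the PBS difference by which the genes were called, so selection favours values of the opposite sign to it. The genes higher in JNK3 KO retinas with PBS had values of -6.29 for Gm25076, -0.45 for Egr1, 1.80 for Gm13821, -2.51 for Parp10, 0.76 for Antxr2 and -2.18 for Arrdc2. Those lower with PBS had values of 2.21 for Gbp9, -1.52 for Slfn4, 3.71 for Thsd7a, 1.53 for Ifit1, 1.77 for Muc2, 2.00 for Rsad2, 1.58 for Ly6c2, 0.45 for Tmem267 and 2.72 for Mapk10. The higher FPKM totals of the WT NMDA libraries move with all of these values, and their part was not tested.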

How the results depend on the processing

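Of the genes named, Mapk8 (-0.08) and Pax6 (0.11), neither of which passed the test, changed sign, Mapk8 to 0.07 with the length correction and Pax6 to -0.04 under quantile normalization, and no called gene did. Medians near 0 changed sign with the scaling for the circadian clock, antigen presentation, Müller glia, lens, ciliary body and iris, and oxidative stress lists, and the C57BL/6 substrain list went from 1 lower to 1 higher gene with the length correction. The 38 genes called became 12 with the 4 PBS libraries alone (3 shared), 16 with the 6 PBS libraries (10 shared) and 249 with no fold limit. The 6 genes within 20 Mb of Mapk10 became 2, 2 and 16 under the same settings. Both counts also fell with each PBS library left out, where the lone library of a group was assumed to vary like the other groups. Without WT NMDA replicate 2, a choice made after seeing the data, 34 genes were called (29 shared), 6 of them in that region, and Mapk10 kept its call (adjusted p = 0.0429), while Cxcl10 (0.0635), Thsd7a (0.054), Muc2 (0.0667) and Mamstr (0.0697) lost theirs. Mapk10 itself stayed at -2.34 without its call with the 4 PBS libraries (adjusted p = 0.108) and without the trend (0.11), and at -2.47 to -2.22 with a library left out. Of 49940 transcripts tested 53 (0.106%) were called, of which 1 remained with the 4 PBS libraries. Without WT replicate 2 the number of transcripts called was 10, and without JNK3 KO replicate 1 it was 114. The fits without a library gave 10 to 114. Of the 21 called genes named, 4 kept the call in all 4 such fits without a PBS library, 6 in some and 11 in none.

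Replicate numbers were not found to pair the samples, with a correlation of deviations of -0.0163 for the PBS pair and -0.0973 to 0.0858 over all pairs of groups. With the replicate block the transcripts called were 18 (17 shared), the genes 31 and Mapk10 -2.34, still called.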

Other observations

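Lists of tissues next to the retina and of the mouse lines held few genes that passed the adjusted p, beside 1.51% of all genes tested. An unadjusted p under 0.05 was found for 2492 of all 16471 genes. Of 18 lens genes 1 was higher (Cryba1), and of 10 genes of the retinal pigment epithelium, 6 of cornea and conjunctiva, 5 of extraocular muscle and 7 of erythrocytes none passed an adjusted p under 0.05 by limma, with 2, 0, 0 and 0 at an unadjusted p under 0.05. Among 9 genes that differ between C57BL/6 substrains, 4 had an unadjusted p under 0.05 by limma. Cyfip2 alone passed and was lower (log2 -0.31, adjusted p = 0.041, and 0.118 with the length correction). Nnt, at chr13:119335528-119408952 and so close to the start of Tmem267 at chr13:119488039, had a log2 fold change of -1.14 (SE 0.42, adjusted p = 0.244) in 1 entry. Its other entry had -0.25 (adjusted p = 0.887). Y-linked Eif2s3y was measured in all 4 libraries, at 50.79 and 53.78 FPKM in WT and 34.58 and 37 FPKM in JNK3 KO libraries (log2 -0.55, adjusted p = 0.095), and Xist did not pass 0.14 FPKM in any of them. Of 19 genes of antigen presentation, Tapbp and H2-D1 were higher and H2-T23 was lower, the last with all 4 JNK3 KO libraries below the other 8.

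Besides Gm8730, the pseudogene Gm9625 stood at 43.49 and 39.23 FPKM in JNK3 KO and 0.57 and 0.63 FPKM in WT PBS libraries (adjusted p = 0.0548), and with NMDA at 64.83 and 65.43 FPKM in JNK3 KO libraries and 1.05 and 9.08 FPKM in WT ones. As for Gm8730, the second WT NMDA library was the one above the other WT libraries, and whether it held some JNK3 KO RNA was not tested.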
